A study of Drosophila melanogaster with 6 samples.

Results

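The chorion and vitelline membrane genes *Cp15*, *Cp16*, *Cp18*, *Cp19*, *Vm26Aa*, *Vm26Ab*, *Vm32E*, *Vm34Ca* and *psd* encode proteins of the fly eggshell, and all 9 were found by symbol among the 16596 loci of an RNA-seq table of *Drosophila melanogaster* stage 5 embryos. They were chosen because follicle cells of the ovary make their mRNAs, which makes them markers of ovary RNA in a library made from embryos. The tested embryos were laid by females homozygous for *zldZnF2*, a cysteine-to-serine change in zinc finger 2 of the transcription factor Zelda made in the endogenous gene, and the wild-type embryos were *w1118*. Polyadenylated RNA was sequenced from 3 samples of each genotype, 6 in all. Stage was judged embryo by embryo under a microscope, after the chorion had been taken off. The table gives 1 FPKM (an expression level corrected for transcript length and library size) per row and genotype. A row is a gene or several genes joined, and rows are counted as loci here although some share a position. Each value pools the 3 samples of its genotype. No value per sample, spread between replicates or test between genotypes could therefore be given, and the differences below have no replicate check.

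The follicle cells form a somatic epithelium around the growing oocyte. They first secrete the proteins of the vitelline membrane, the inner layer of the eggshell, and then those of the chorion, the outer layer. In late egg chambers they amplify the DNA of the chorion gene clusters and make very large amounts of chorion mRNA. These cells are shed when the egg leaves the ovary, and their eggshell mRNAs are not among those that nurse cells load into the egg. The maternal mRNAs of the embryo come from the germ line.

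Every one of the 2716 loci on chromosomes X, Y and 4 was listed at 0 in *zldZnF2* and in *w1118*, *Act5C* included, a cytoplasmic actin gene that all cells use. These loci carry no information here, which removes the X-linked chorion genes. On the arms 2L, 2R, 3L and 3R, where all 9 eggshell genes lie, 3427 of 13880 loci (24.7%) were listed at 0 in both genotypes and 6265 loci (45.1%) reached an FPKM of 1 in at least 1 genotype. The stage 5 label was checked with 13 zygotic blastoderm genes of these arms, such as *halo* and *slam*, which act in lipid droplet transport and cellularization. All 13 were above an FPKM of 60 in both genotypes, with *halo* at 2812 in *zldZnF2* and 2144 in *w1118* and *slam* at 1927 in *zldZnF2* and 1919 in *w1118*.

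Apart from *Cp18*, the eggshell genes were at or near 0 in embryos of either genotype. *Cp18* was the only member with an FPKM of at least 1, and its values in *zldZnF2* and *w1118* were nearly the same. *Cp19*, *Vm26Ab* and *Vm32E* were listed at 0 in both genotypes. The other 5 were below an FPKM of 0.4 wherever they had a value. The summed FPKM of all 9 was 1.69 in *zldZnF2* and 1.30 in *w1118*, against a median of 20.1 in *zldZnF2* and 20.0 in *w1118* for a single locus among those that reached 1. Without *Cp18* the sums of the remaining 8 were 0.555 in *zldZnF2* and 0.104 in *w1118*, and most of that gap came from *Vm34Ca*. Without *Vm34Ca* as well, the sums of the remaining 7 were 0.178 in *zldZnF2* and 0.104 in *w1118*.

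**Figure D1:**
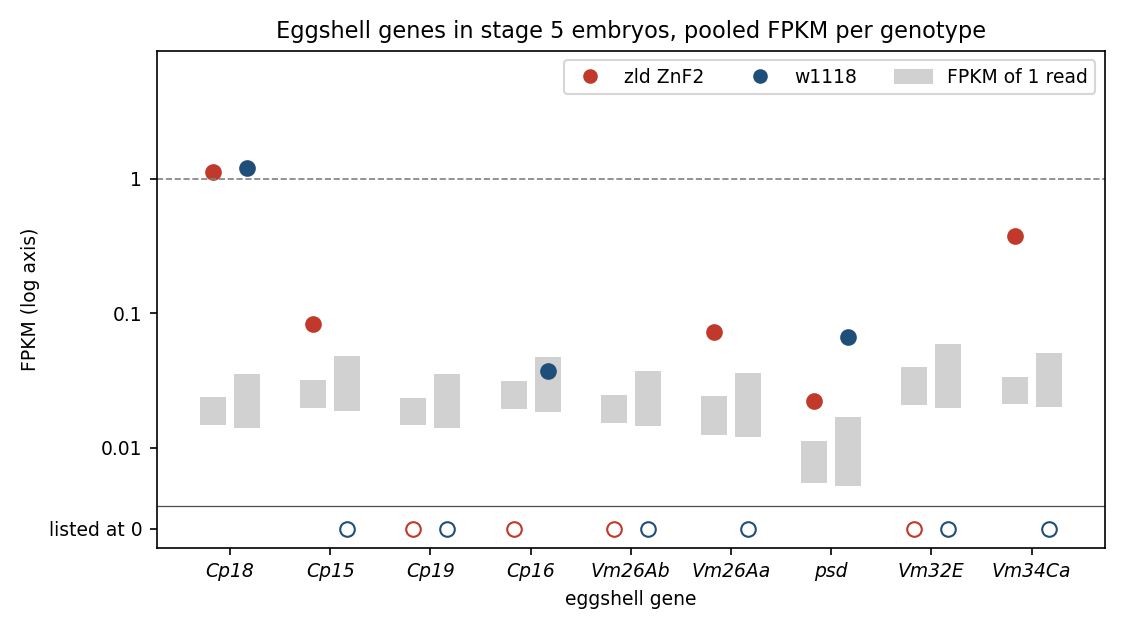
FPKM of the 9 eggshell genes on a log axis, *zldZnF2* left of *w1118* for each gene, with open points for values listed at 0, grey boxes for the range that 1 read was worth and a dashed line at an FPKM of 1. Only *Cp18* reaches the line, with 1.14 in *zldZnF2* and 1.20 in *w1118*, and most other values lie at 0 or within a few reads of it.

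How many reads such low values stand for could be worked out from the table. Among 5334 genes of the 4 arms with a single annotated transcript, the FPKM multiplied by the transcript length less 121 bases fell in narrow steps at low values. In *zldZnF2* the steps were 7.81 and 12.5 FPKM times bases, and in *w1118* they were 7.44 and 18.8. Low values were taken as those between 0.5 and 5 times the lower step. Of the 548 in *zldZnF2*, 94.7% lay within 1% of a step or of a sum of steps, although 90.0% of that range (on a log scale) lies outside these bands. In *w1118* this held for 96.0% of 428 values, with 93.5% of the range outside the bands. A step was read as the worth of 1 read, which takes 2 sizes in each genotype, and the libraries behind each size are not known. The number of reads below is therefore given as a range where the value does not fix it. The range covers the 2 step sizes and the annotated transcript lengths, and it holds no counting error.

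**Figure D2:**
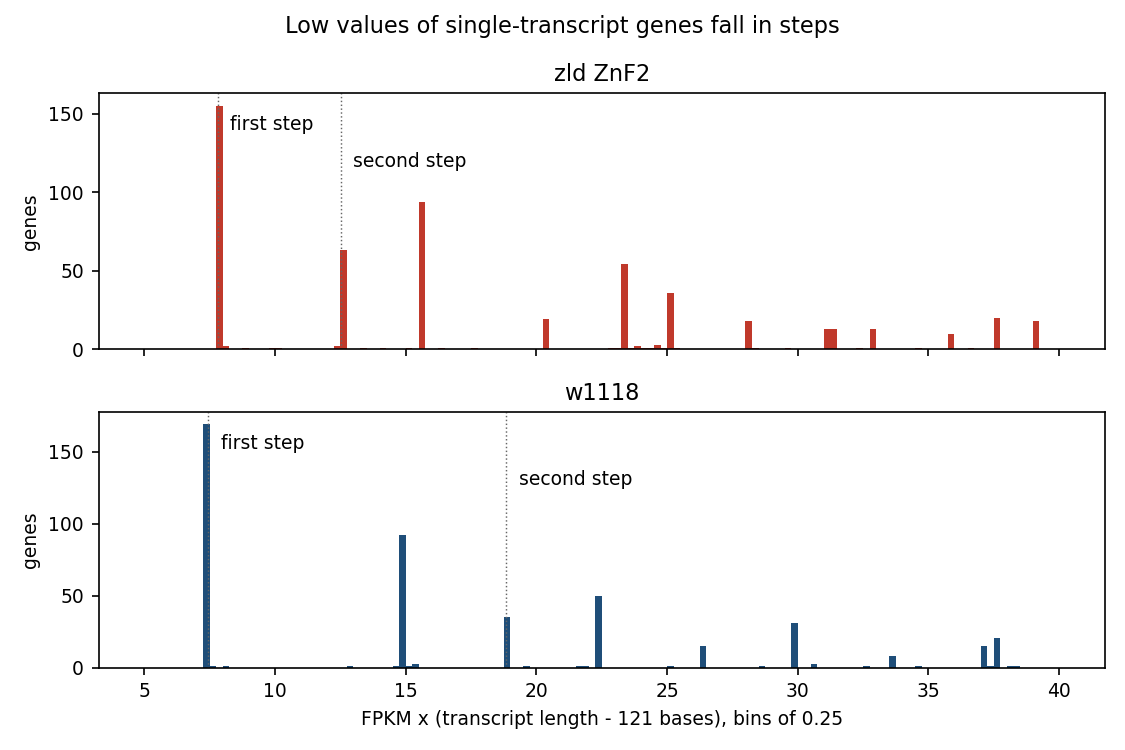
Number of genes with a single annotated transcript (vertical axis) by FPKM times transcript length less 121 bases (horizontal axis), *zldZnF2* above *w1118*. The bars stand in narrow columns at the 2 marked steps, 7.81 and 12.5 in *zldZnF2* and 7.44 and 18.8 in *w1118*, and at their sums.

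The 4 chorion genes encode major structural proteins of the chorion and lie next to each other on the plus strand of 3L, in 5809 bases from 8726791 to 8732599 (dm6 coordinates, annotation of Ensembl release 115), each with 2 exons and transcripts of 515 to 651 bases. *Cp18* (FBgn0000357, 8726791 to 8727613) had an FPKM of 1.14 in *zldZnF2* and 1.20 in *w1118*. These values stand for 48 to 76 reads in *zldZnF2* and 34 to 85 reads in *w1118*. The log2 ratio of *Cp18*, taken after adding 0.1 to each FPKM and positive where *zldZnF2* is higher, was -0.075. The level of *Cp18* was above 58.0% of the loci of the 4 arms in *zldZnF2* and above 58.8% in *w1118*, counting the loci at 0.

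The 3 other chorion genes did not share the level of *Cp18*. *Cp15* (FBgn0000355, 8728481 to 8729066) had an FPKM of 0.0835 in *zldZnF2*, which fits 3 reads, and was listed at 0 in *w1118*. *Cp16* (FBgn0000356, 8731944 to 8732599) was listed at 0 in *zldZnF2* and had 0.0371 in *w1118*, which fits 2 reads. *Cp19* (FBgn0000358, 8729865 to 8730604) was listed at 0 in both genotypes. A value listed at 0 was taken as 0 reads, and up to 3 reads were allowed for it. This limit is a chosen setting and not a bound, and whether each listed 0 means 0 reads is not known. For *Cp19* the limit corresponds to an FPKM of 0.0709 in *zldZnF2* and 0.107 in *w1118*. In the same way it is 0.143 for *Cp15* in *w1118* and 0.0937 for *Cp16* in *zldZnF2*. Neither gene had a value in the other genotype above its limit. The FPKM of *Cp18*, a measure per transcript length, was 13.6 times that of *Cp15* in *zldZnF2* and 32.3 times that of *Cp16* in *w1118*.

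*Cp18* is the first gene of the cluster, and genes with an FPKM above that of *Cp15* and *Cp16* lie next to the cluster on either side. The locus before it ends 682 bases upstream of *Cp18* and holds *CG6511*, on the same strand, with an FPKM of 4.78 in *zldZnF2* and 2.32 in *w1118*, and *CG43965*, on the opposite strand, with 7.63 in *zldZnF2* and 2.40 in *w1118*. Both had log2 ratios above 1 (1.01 for *CG6511* and 1.63 for *CG43965*), whereas that of *Cp18* was close to 0. Farther upstream, *CG32022* had an FPKM of 55.3 in *zldZnF2* and 66.3 in *w1118*, and *SrpRbeta*, a subunit of the receptor for the signal recognition particle, had 25.1 in *zldZnF2* and 57.7 in *w1118*. After *Cp16*, at a distance of 258 bases on the opposite strand, *Prm*, which encodes the muscle protein paramyosin, had 1.91 in *zldZnF2* and 0.896 in *w1118*. The next loci, *CG13306* and *CR44527*, had at most 0.0381, the value of *CG13306* in *zldZnF2*. Between *Cp18* and *Prm*, the 3 chorion genes *Cp15*, *Cp19* and *Cp16* were thus lower than both. The library kit does not mark the strand of the RNA, and the part of neighbouring transcripts in the value of *Cp18* was not tested.

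**Figure D3:**
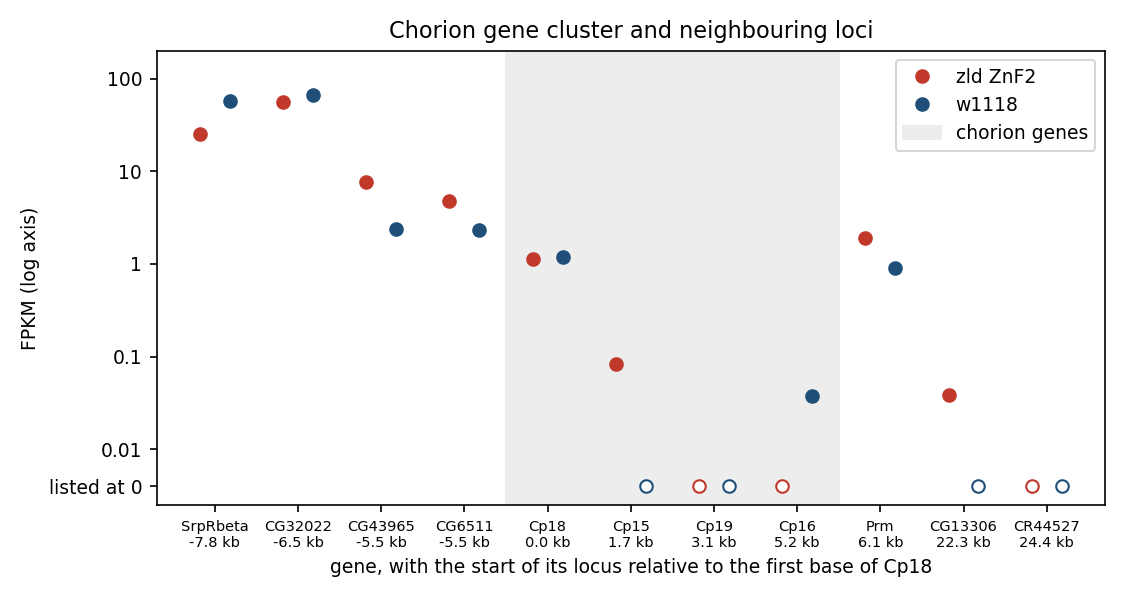
FPKM on a log axis of the 4 chorion genes (shaded) and of the 3 nearest loci on each side, in order along 3L, *zldZnF2* left of *w1118*, with open points for values listed at 0 and the start of each locus in kilobases from the first base of *Cp18*. *Cp18* lies at 1.14 and 1.20, below the genes to its left, and the other chorion genes are at or below 0.0835.

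The 5 vitelline membrane genes lie on 2L at 3 places, are mostly single-exon genes and were all below an FPKM of 1 in both genotypes. *Vm34Ca* (FBgn0003983, minus strand, 13411141 to 13411631), one of the vitelline membrane structural genes, had the largest value among them, an FPKM of 0.376 in *zldZnF2*, and was listed at 0 in *w1118*. The *zldZnF2* value stands for 12 to 17 reads, and the limit of 3 reads in *w1118* is an FPKM of 0.153. Of the 4 members with a value in only 1 genotype, this alone exceeded the 3-read limit of the other. Since the samples are pooled, it cannot be said whether 1 library or all 3 of *zldZnF2* carried these reads. The gene *CG7110*, on the plus strand, ends 93 bases from *Vm34Ca* and had an FPKM of 13.02 in *zldZnF2* and 21.7 in *w1118*. Its part in the value of *Vm34Ca* was not tested. *CG7110* was looked up after the value of *Vm34Ca* was seen.

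*Vm26Aa*, *Vm26Ab* and *psd* lie together with a further vitelline membrane gene, *Vm26Ac*, in 7948 bases from 5957004 to 5964951. *Vm26Aa* (FBgn0003979, minus strand, 5959596 to 5960340) had an FPKM of 0.0723 in *zldZnF2*, or 3 to 5 reads, and was listed at 0 in *w1118*, which allows 0.109. *Vm26Ab* (FBgn0003980, plus strand, 5957004 to 5957639) was listed at 0 in both genotypes, which allows an FPKM of 0.0745 in *zldZnF2* and 0.112 in *w1118*. *psd* (palisade, FBgn0086265, minus strand, 5963087 to 5964951), a vitelline membrane protein needed for the membrane's structure, was the only member besides *Cp18* with a value in both genotypes. Its FPKM was 0.0225 in *zldZnF2*, or 2 to 4 reads, and 0.0664 in *w1118*, or 4 to 12 reads. The log2 ratio of *psd* was -0.44 with the added 0.1, on counts too small to give it weight. *Vm26Ac* was listed at 0 in both genotypes.

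The loci beside this cluster were low too. *CG13998* was listed at 0 in both genotypes, *CG13999* at 0 in *zldZnF2* and 0.00809 in *w1118*, and *CG13992*, on the other side, had 0.127 in *zldZnF2* and 0.177 in *w1118*. Farther out, *Ucp4C*, an uncoupling protein gene, had 0.0145 in *zldZnF2* and 0.416 in *w1118*, and *Ucp4B*, of the same family, had 1.68 in *zldZnF2* and 0.528 in *w1118*, while *CR43465* in the same locus had 1.20 in *zldZnF2* and 1.58 in *w1118*. *CG9044* had 6.85 in *zldZnF2* and 2.79 in *w1118*. *Vm32E* (FBgn0014076, minus strand, 11171167 to 11171665) was listed at 0 in both genotypes, which allows 0.119 in *zldZnF2* and 0.179 in *w1118*. It lies within the annotated span of *Ca-beta*, a calcium channel subunit gene, which had 0.0130 in *zldZnF2* and 0.0770 in *w1118*. *CG4788*, in the same locus, had 142 in *zldZnF2* and 148 in *w1118*. The distance between *CG4788* and *Vm32E* was not determined. Vitelline membrane genes resemble each other in sequence, so reads could be shared among them by the authors' counting.

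Counted as a group, 3 of the 9 eggshell genes were listed at 0 in both genotypes, *Cp15*, *Vm26Aa* and *Vm34Ca* had a value in *zldZnF2* alone, *Cp16* in *w1118* alone, and *Cp18* and *psd* in both. Among all loci of the 4 arms, 24.7% were listed at 0 in both genotypes and 11.0% had a value in only 1. These shares cover loci at every level, 45.1% of which reached an FPKM of 1. The share among loci as low as the members was not computed, so no excess can be read from this. Where an FPKM of 1 was required in at least 1 genotype, 1 of the 9 passed, and 0 of the 9 were more than 2-fold higher or lower in *zldZnF2*. Of all 6265 loci that passed, 14.6% were more than 2-fold higher and 10.7% more than 2-fold lower, and the count for the eggshell genes rests on *Cp18* alone. Without that minimum, 6 members had a value, of which 1 (*Vm34Ca*, with 0.1 added to its 0 in *w1118*) was more than 2-fold higher and 0 were lower, where 14.0% of all 10453 loci with a value were higher and 12.1% lower. The median log2 ratio over all loci that passed was -0.0038, beside -0.075 for *Cp18*. With *psd*, which did not pass, the median of the 2 members with a value in both genotypes was -0.26. No fold change is given for the members listed at 0.

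Among other eggshell genes, *Pxt* alone reached an FPKM of 1. Of 20 listed, 19 were matched to the table and 8 of these lie on the 4 arms. *Vm26Ac* and the genes *yellow-g* and *yellow-g2*, which are amplified in follicle cells like the chorion genes and act in eggshell hardening, were listed at 0 in both genotypes. The FPKM of *clos*, *tsl*, *ndl* and *Pxd*, which encode eggshell or perivitelline proteins, was between 0.150 and 0.901 in *zldZnF2* and between 0.0587 and 0.620 in *w1118*. *Pxt*, a cyclooxygenase-like enzyme needed for follicle maturation, had 14.0 in *zldZnF2* and 53.8 in *w1118*, a log2 ratio of -1.93. Whether *Pxt* RNA came from follicle cells or was loaded into the egg was not tested. All 3 yolk protein genes lie on the X chromosome and could not be read.

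Follicle cell genes outside the eggshell, several of which the embryo also transcribes, were low as well. *tj*, a transcription factor of the somatic gonad, was listed at 0 in both genotypes, and *slbo*, the border cell factor, had 0.0605 in *zldZnF2* and 0.0424 in *w1118*. Of the 10 genes, 2 passed an FPKM of 1 and both were more than 2-fold higher in *zldZnF2*, beside 14.6% of all loci that passed. Both passed only through their *zldZnF2* value, which favours such a call. They were *Hr39*, a nuclear receptor, with 1.78 in *zldZnF2* and 0.496 in *w1118*, and *Fas3*, a cell adhesion protein, with 1.00 in *zldZnF2* and 0.265 in *w1118*. Genes whose mRNAs the germ line of the ovary loads into the egg all passed an FPKM of 1. The 13 had a median of 12.4 in *zldZnF2* and 32.2 in *w1118*. They summed to 725 in *zldZnF2* and 1222 in *w1118*, of which *CycB* alone had 358 in *zldZnF2* and 687 in *w1118*. Another large part was *hb*, with 161 in *zldZnF2* and 207 in *w1118*. The paper states that embryos at the sampled stage hold newly transcribed mRNAs beside maternal ones. How much of the values of *hb* and the rest of this list was loaded mRNA was not tested. Of the 13, 3 were more than 2-fold lower in *zldZnF2*, among them *bcd*, the anterior determinant, with 9.22 in *zldZnF2* and 37.8 in *w1118*. The others were *grk*, with 2.62 in *zldZnF2* and 7.96 in *w1118*, and *BicD*, with 11.2 in *zldZnF2* and 30.4 in *w1118*. The germ plasm genes *vas*, with 12.4 in *zldZnF2* and 5.74 in *w1118*, and *tud*, with 8.25 in *zldZnF2* and 2.19 in *w1118*, were more than 2-fold higher. Among all loci that passed, 10.7% were lower and 14.6% higher. The lowest gene of this list in *zldZnF2* was *osk*, with 1.61 in *zldZnF2* and 2.66 in *w1118*, above each of the 9 eggshell genes in both genotypes.

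Most sarcomere and midgut genes that reached an FPKM of 1 were lower in *zldZnF2*. Of 18 sarcomere genes on the 4 arms, 11 passed an FPKM of 1. On the scale with 0.1 added, 8 of these were more than 2-fold lower in *zldZnF2*, 2 were higher and 1 was within 2-fold. Among all loci that passed, 10.7% were lower and 14.6% higher. The 8 passed only through their *w1118* value and the 2 only through their *zldZnF2* value, which favours such calls. *Mlc1*, *Mf*, *TpnC47D*, *TpnC73F* and *Zasp66* were listed at 0 in *zldZnF2*. *Act57B*, a muscle actin, had 0.336 in *zldZnF2* and 21.7 in *w1118*, in a row that joins 2 genes. The myosin light chain gene *Mlc1* had 6.34, the myofilament gene *Mf* 4.92 and the troponin C gene *TpnC47D* 4.91 in *w1118*. *Act87E*, another actin gene, went the other way, with 10.6 in *zldZnF2* and 0.614 in *w1118*. The summed FPKM of the list was 519 in *zldZnF2* and 564 in *w1118*, most of it from *Tm1*, a tropomyosin gene used in many cells, at 504 in *zldZnF2* and 509 in *w1118*. Of 11 midgut digestion genes, 3 passed and all 3 were more than 2-fold lower in *zldZnF2*. These 3 also passed only through their *w1118* value. *alphaTry*, a trypsin, had 0.0106 in *zldZnF2* and 2.93 in *w1118*, and 2 further serine proteases of the gut were listed at 0 in *zldZnF2*, *betaTry* with 1.12 in *w1118* and *Jon65Aiv* with 1.42 in *w1118*. Of the 11, 6 were listed at 0 in *zldZnF2* and 2 in *w1118*. The summed FPKM of the midgut list was 0.141 in *zldZnF2* and 7.44 in *w1118*, beside eggshell sums of 1.69 in *zldZnF2* and 1.30 in *w1118*. Which cells the sarcomere and midgut transcripts came from was not tested, and the values do not show that such cells were present. In pooled embryos, fewer cells of a type and less RNA per cell cannot be told apart. Whether any eggshell reads came with these transcripts was not tested.

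**Figure D4:**
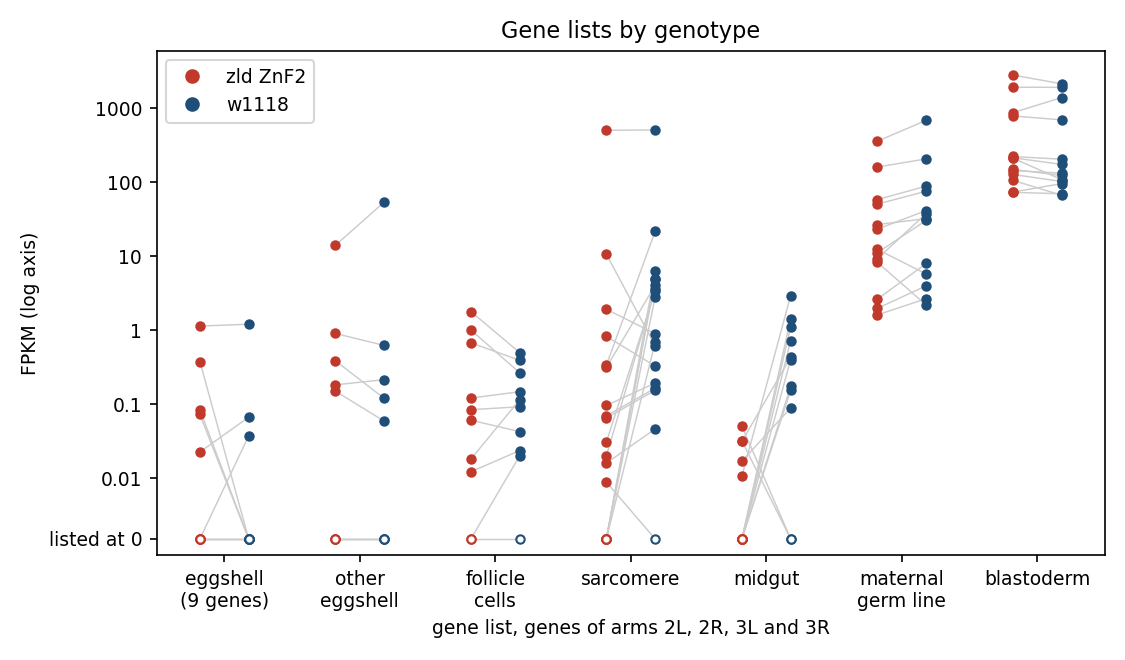
FPKM on a log axis of the genes of 7 lists on arms 2L, 2R, 3L and 3R, each gene a line from *zldZnF2* (left) to *w1118* (right), with open points for values listed at 0. The eggshell genes sit at 0 to 1.20 in both genotypes, most sarcomere and midgut genes stand lower in *zldZnF2*, and maternal germ-line and blastoderm genes are at 1.61 or above in both.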

How the data were processed

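RNA from 3 samples of *zldZnF2* and 3 of *w1118* stage 5 embryos was sequenced, and samples were grouped by genotype as labelled. Single-end reads were trimmed and quality-filtered by the authors on Galaxy. RNA-STAR served for alignment to dm6, Cufflinks with its defaults for transcript assembly, and Cuffdiff for the comparison of genotypes. The submitters' processing notes also name TopHat. The deposited table holds 1 FPKM for each row (a gene or joined genes) in each genotype, covering the 3 replicates together, with a fold change, a test statistic, a p-value and a q-value of their own comparison, none of which was used here. The options for counting, and the depth per sample, are not given in the sources used here.

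Log2 ratios were computed after adding a pseudocount of 0.1 FPKM to each value. Loci that reached an FPKM of 1 in at least 1 genotype were counted beyond a 2-fold limit, while the ratio of *psd*, and the median that includes it, are given without that minimum. With pooled values no test across samples could be made. Reads behind low values were estimated from FPKM steps of single-transcript genes more than 100 bases longer than the offset of 121 bases, with a tolerance of 1%. The limit used for a value of 0 is 3 reads at the larger step, a chosen setting that takes a listed 0 as 0 reads. The fit of the steps and the 2-fold calls were tested on simulated data, whereas the read ranges and the limit of 3 reads were not. Genes were matched by symbol, then by RefSeq synonym at an overlapping position, and coordinates are 1-based (Ensembl release 115). The members and the 11 gene lists were chosen with earlier results of these data known. The genes named were the 9 members, the 3 nearest loci on each side of the chorion and 26A clusters, and, of each list, up to 5 genes past the 2-fold limit or otherwise the 2 highest. The neighbours of *Vm34Ca* and *Vm32E*, the sarcomere genes listed at 0, *osk*, *Tm1*, *tj*, *slbo* and the low genes of the other eggshell list were added after their values were seen. Python 3.11.15, NumPy 2.4.6, pandas 2.3.3 and Matplotlib 3.10.9 were used. Alternatives were other pseudocounts, filters and fold limits, centring on the median and single-gene loci.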

Additional observations from a re-analysis of the deposited data

How the results depend on the processing

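The counts of eggshell genes beyond the 2-fold limit rest on *Cp18* alone, and they stayed at 0 in both directions under each alternative but 1. With no filter on low values, *Vm34Ca* was counted as higher in *zldZnF2*, which makes 1 higher and 0 lower of the 6 members above 0, beside 14.0% higher and 12.1% lower of all loci above 0. With an FPKM of at least 5 asked for, no member was left. The median log2 ratio of *Cp18* and *psd*, -0.26, was -0.052 with a pseudocount of 1, -0.66 with a pseudocount of 0.01, -0.25 when centred on the median of all loci, and -0.075 for *Cp18* alone, an alternative chosen after seeing the data. It depends on the pseudocount because *psd* is so low. Among all loci, 916 were more than 2-fold higher and 671 more than 2-fold lower. Of the 6265 loci that passed, these are 14.6% and 10.7%. The counts were 1459 and 1270 of 10453 with no filter, 524 and 382 with an FPKM of at least 5, and 372 and 338 beyond 3-fold. No replicate could be left out, and no spread could be given, because the values are pooled. No paired analysis was possible because the table holds no value per sample. The members other than *Cp18* rest on at most 17 reads in a genotype, which limits the precision of their values.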

Other observations

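Most markers of other adult tissues on the 4 arms stayed below an FPKM of 1 in both genotypes. Among all loci of these arms, 45.1% reached an FPKM of 1 in at least 1 genotype and 24.7% were listed at 0 in both genotypes. *Obp44a*, *Rh4* and *Drs* were above every one of the 9 eggshell genes in both. Of 9 genes of the testis and male accessory gland, 0 reached an FPKM of 1 in either genotype and 5 were listed at 0 in both. Their summed FPKM was 0.189 in *zldZnF2* and 0.0507 in *w1118*. The highest were *Mst87F*, a sperm protein gene, with 0.0771 in *zldZnF2* and 0 in *w1118*, and *Acp36DE*, a seminal fluid protein gene, with 0.0718 in *zldZnF2* and 0.0282 in *w1118*. Of 7 fat body and haemolymph genes on the 4 arms, 3 reached an FPKM of 1 and none of the 3 passed the 2-fold limit. *Obp44a*, an odorant-binding protein gene, had 7.15 in *zldZnF2* and 11.999 in *w1118*, and *Drs*, the antifungal peptide drosomycin, had 1.39 in *zldZnF2* and 1.34 in *w1118*. Of 8 spermatheca and eye genes, 2 reached an FPKM of 1. Of these, 1 was more than 2-fold higher in *zldZnF2*, beside 14.6% of all loci that passed. It was the opsin gene *Rh4*, with 5.20 in *zldZnF2* and 1.39 in *w1118*. The genes all cells use were within 2-fold, 8 of 8 on the 4 arms, where 14.6% of all loci that passed were higher and 10.7% lower. *eEF1alpha1* was at 10662 in *zldZnF2* and 10377 in *w1118*, and *alphaTub84B* at 5646 in *zldZnF2* and 4556 in *w1118*.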
